A study of Homo sapiens with 18 samples.

Results

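Open chromatin was examined at the loci of 6 genes of the ERBB growth factor system: the receptors ERBB2 and ERBB3 and the EGFR ligands AREG, EREG, HBEGF and TGFA. All peaks within 50 kb of a gene body (hg19, bodies given to 1 kb) were taken from 18 deposited ATAC-seq peak lists of PC9. PC9 is an established line from a human lung adenocarcinoma and carries an activating EGFR mutation. ATAC-seq marks open DNA by the insertion of a transposase. Peaks that shared at least 1 bp were merged across libraries, and 46 of the resulting 79483 regions lay in the 6 windows. The HBEGF and TGFA windows held 11 regions each, ERBB3 10, ERBB2 9, EREG 4 and AREG 1. No region lay in 2 windows. A region counted as held by a library with any peak inside it.

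There were 6 groups with 3 libraries each, lettered a to c. The DTP group (drug-tolerant persisters) was the cells that survived 8 days in 1 µM erlotinib, an inhibitor of the EGFR kinase, and PC9 was the unsorted population given the vehicle DMSO. ALDH_Low_Erl and ALDH_Low_DMSO cells, and likewise ALDH_High_Erl and ALDH_High_DMSO cells, received 1 µM erlotinib or DMSO for 12 h and were then sorted by Aldefluor staining, which reports the activity of aldehyde dehydrogenase (ALDH). All cells were frozen and thawed before tagmentation. The labels do not say whether the libraries of a group came from separate cultures, so p-values measure the spread between these libraries, which may be technical.

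EGFR, ERBB2, ERBB3 and ERBB4 are receptor tyrosine kinases that act as pairs. Amphiregulin (AREG), epiregulin (EREG), heparin-binding EGF-like growth factor (HBEGF) and transforming growth factor alpha (TGFA) are made as membrane-anchored precursors and are released by proteases of the cell surface. AREG and TGFA bind EGFR, whereas EREG and HBEGF bind EGFR and ERBB4. ERBB2 has no known ligand and is the preferred partner of the other receptors, and ERBB3 binds neuregulins, has a weak kinase and recruits PI3 kinase. In EGFR-mutant lung cancer, signalling through ERBB2 and ERBB3 is a known route past EGFR inhibitors.

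The promoters of the 4 ligands are shown because the calls at their gene starts differ most: HBEGF and TGFA starts were called in all 18 libraries, the EREG start in 16 and the AREG start in none. They are the 250 bases before the transcription start in RefSeq (GRCh38.p14), 5′ to 3′ on the gene's strand, and capitals mark matches on either strand to the 4 motifs searched. These motifs were AP-1 (TGANTCA), CRE (TGACGTCA), the GC box (GGGCGG) and TEAD (GGAATG).
AREG promoter (chr4:74444886-74445135, plus strand): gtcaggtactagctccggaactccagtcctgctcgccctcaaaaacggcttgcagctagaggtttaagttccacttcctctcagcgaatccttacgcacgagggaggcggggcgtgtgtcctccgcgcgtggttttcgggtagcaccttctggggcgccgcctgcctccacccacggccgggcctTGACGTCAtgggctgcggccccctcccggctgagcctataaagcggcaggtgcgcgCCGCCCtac
EREG promoter (chr4:74364895-74365144, plus strand): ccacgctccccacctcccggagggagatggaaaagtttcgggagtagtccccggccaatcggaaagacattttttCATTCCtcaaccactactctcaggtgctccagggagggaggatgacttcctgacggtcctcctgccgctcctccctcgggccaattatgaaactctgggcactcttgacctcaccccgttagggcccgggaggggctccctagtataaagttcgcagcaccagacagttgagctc
HBEGF promoter (chr5:140346604-140346853, minus strand): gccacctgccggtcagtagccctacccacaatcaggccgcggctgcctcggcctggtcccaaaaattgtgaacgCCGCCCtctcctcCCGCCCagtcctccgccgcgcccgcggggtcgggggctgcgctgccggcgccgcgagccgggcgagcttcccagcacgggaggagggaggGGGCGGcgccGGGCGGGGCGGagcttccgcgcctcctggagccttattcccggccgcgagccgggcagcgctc
TGFA promoter (chr2:70553827-70554076, minus strand): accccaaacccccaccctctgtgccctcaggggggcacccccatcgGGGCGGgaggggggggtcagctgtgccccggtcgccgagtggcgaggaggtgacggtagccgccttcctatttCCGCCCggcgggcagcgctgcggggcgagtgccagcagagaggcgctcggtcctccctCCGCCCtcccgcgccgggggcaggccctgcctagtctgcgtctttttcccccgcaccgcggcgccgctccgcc
AREG held 1 CRE and 1 GC box, EREG 1 TEAD match, HBEGF 5 GC boxes (counting overlapping matches) and TGFA 3 GC boxes. RefSeq lists another TGFA start site, whose window (chr2:70553447-70553696, not printed) has 64% GC and 0 matches. Of the 35116 promoters in the table, 42.6% held a GC box, 11.9% a TEAD match, 6.57% an AP-1 match and 1.65% a CRE. The GC content was 76.4% for HBEGF, 75.6% for TGFA, 65.2% for AREG and 58% for EREG, against a median of 58% over all promoters. ERBB2 (65.6% GC) held 1 AP-1 match. A match describes letters in this window and is not evidence of binding. Sequences of the called regions themselves were not analysed here, and neither were EGFR, ERBB4 and the other genes of the pathway.

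Each region is named here by its gene and by the distance of its centre from the gene start, positive in the direction of transcription. Peaks carry a deposited score of unstated scale, so only the rank of a peak within its list was used. The percentile of a region in a library is that of its highest-scoring peak, with 100 for the top of the list. List length differed with treatment. DTP lists held 42204 to 45241 peaks and PC9 lists 39394 to 41831. ALDH-low lists held 32583 to 40670 peaks after erlotinib and 26225 to 26438 after DMSO, and ALDH-high lists 34317 to 40710 and 30336 to 32819. For ranks compared between groups, every list was first reduced to its 26225 highest-scoring peaks (lists of equal size). Percentiles of the deposited lists describe single libraries and are not compared between groups, since list length enters them. Read depth is unknown, and a region that was not called is not shown to be closed.

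Of the 46 regions, 14 (30.4%) were held by all 18 libraries, against 17.7% of all 79483 regions. They lay at TGFA (5), ERBB3 (4), HBEGF (3), ERBB2 (1) and EREG (1). A further 7 (15.2%) were held by a single library, against 21.2% of all regions. The median width was 1138.5 bp at the 6 loci and 999 bp overall. Per library, the 6 loci together held 31 ± 3.46 regions in DTP and 29.3 ± 1.15 in PC9 (SD, n = 3 each). They held 31 ± 1.73 in ALDH-low erlotinib and 22.7 ± 3.51 in ALDH-low DMSO libraries, and 29.7 ± 4.93 in ALDH-high erlotinib and 25 ± 2.65 in ALDH-high DMSO libraries (SD, n = 3 each).

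**Figure D1:**
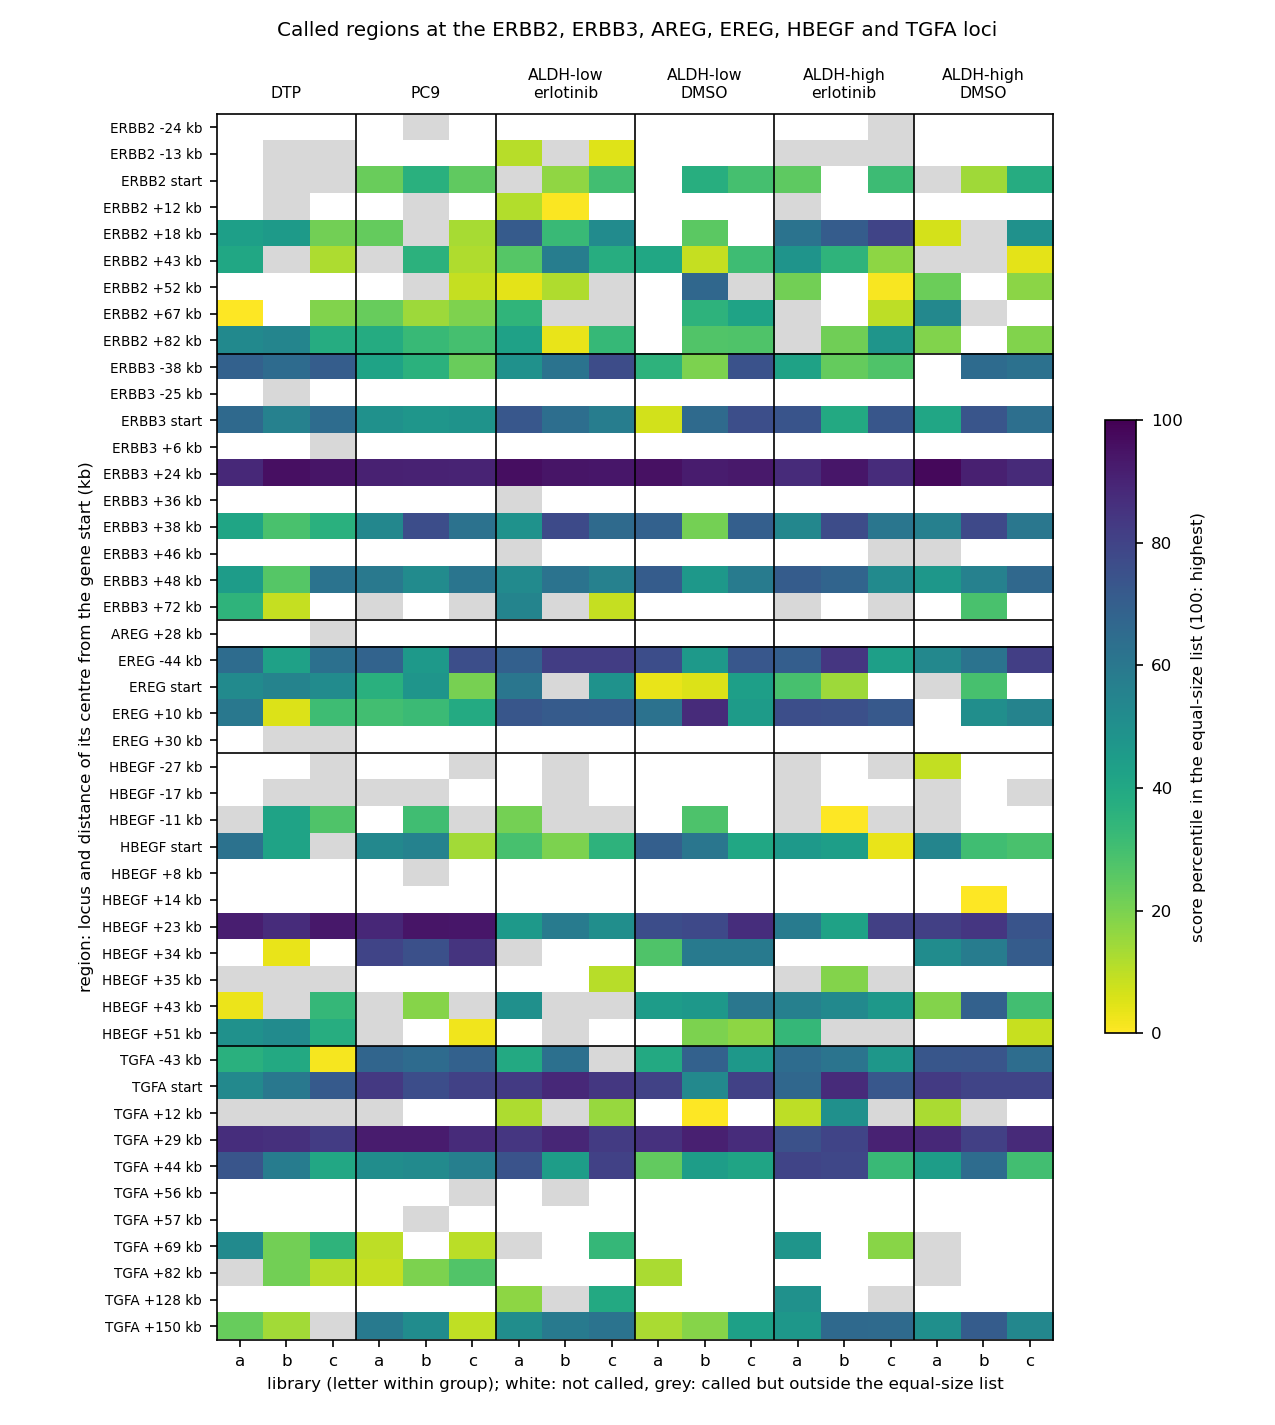
Each row is 1 of the 46 regions, grouped by locus, and each column a library. Colour gives the score percentile in lists of equal size, grey a peak called outside that list and white no call. The most evenly dark rows are ERBB3 +24 kb and TGFA +29 kb, and the single AREG row is empty except for DTP c.

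At HBEGF, a region 34 kb downstream of the gene start was called in every DMSO library and lost its call in most or all libraries under erlotinib. HBEGF +34 kb (chr5:139691251-139692435, in the flank towards PFDN1) was held by 1 of 3 DTP and 3 of 3 PC9 libraries. It was held by 1 of 3 ALDH-low erlotinib and 3 of 3 ALDH-low DMSO libraries, and by 0 of 3 ALDH-high erlotinib and 3 of 3 ALDH-high DMSO libraries. The DMSO groups are thus complete and the erlotinib groups, at 12 h and at 8 days, nearly empty.

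In lists of equal size, HBEGF +34 kb stood at percentile 3.14 in DTP b and was absent from DTP a and c, against 79.5, 75.7 and 84.9 in PC9. It was in no ALDH-low erlotinib list, against percentiles of 27.6, 58.9 and 58.9 in ALDH-low DMSO. It was in no ALDH-high erlotinib list, against 51.4, 57.8 and 71.0 in ALDH-high DMSO. In 8 of the 9 DMSO lists the region therefore lay in the upper part of the list. Of the erlotinib lists, only that of DTP b held it. Equal length is not an equal score cutoff, since the cut removes more peaks from the longer erlotinib lists. ALDH-low erlotinib a called the region as deposited, at percentile 28.6 of its list, and lost it by the cut.

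Loss of the call from all 6 erlotinib libraries and presence in all 6 DMSO libraries, in lists of equal size, gave the smallest p this design allows (exact permutation test, two-sided, treatment labels permuted within fractions, p = 0.005, adjusted p = 0.00937 over 1453 regions). With no filter on the regions tested the adjusted p was 0.224, which ends the call. Of those 1453 regions, whose call numbers allow complete separation, 22.6% passed as lower under erlotinib and 30.8% as higher. In the lists as deposited, 1 of 6 erlotinib libraries held the region (exact permutation p = 0.02), and the adjusted p was 0.0413 over the 6480 regions able to reach an unadjusted p under 0.05, of which 5.56% passed as lower and 42.8% as higher. With no filter it was 0.318.

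The neighbouring region HBEGF +35 kb (chr5:139690079-139691122) ended 128 bp from it and had the reverse pattern of calls. It was held by 3 of 3 DTP and 0 of 3 PC9 libraries, 1 of 3 ALDH-low erlotinib and 0 of 3 ALDH-low DMSO libraries, and 3 of 3 ALDH-high erlotinib and 0 of 3 ALDH-high DMSO libraries. Its peaks ranked low. They lay at percentiles 31.5, 10.3 and 30.0 of the deposited lists in DTP and 28.1, 37.7 and 3.58 in ALDH-high erlotinib, and at 28.1 in ALDH-low erlotinib c. Only DTP b held both regions, and only ALDH-low erlotinib b held neither.

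The calls at this place depended on the 128 bp between the 2 regions. Joined into 1 region, they were held by 17 of 18 libraries as deposited, and the share of libraries with a call differed by -16.7 percentage points between erlotinib and DMSO (exact permutation p = 1). In lists of equal size the joined region was held by 1 of 3 DTP and 3 of 3 PC9 libraries, 1 of 3 ALDH-low erlotinib and 3 of 3 ALDH-low DMSO libraries, and 1 of 3 ALDH-high erlotinib and 3 of 3 ALDH-high DMSO libraries (exact permutation p = 0.08 over the sorted libraries). The higher of its percentiles was 3.14 in the DTP list that held it, against 75.7 to 84.9 in PC9, and 10.7 and 18.5 in the 2 erlotinib lists that held it, against 27.6 to 71.0 in the 6 DMSO lists. The rank of the joined region was therefore lower in each erlotinib list that held it than in any DMSO list of the same comparison, while a peak of low score was still called there.

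**Figure D2:**
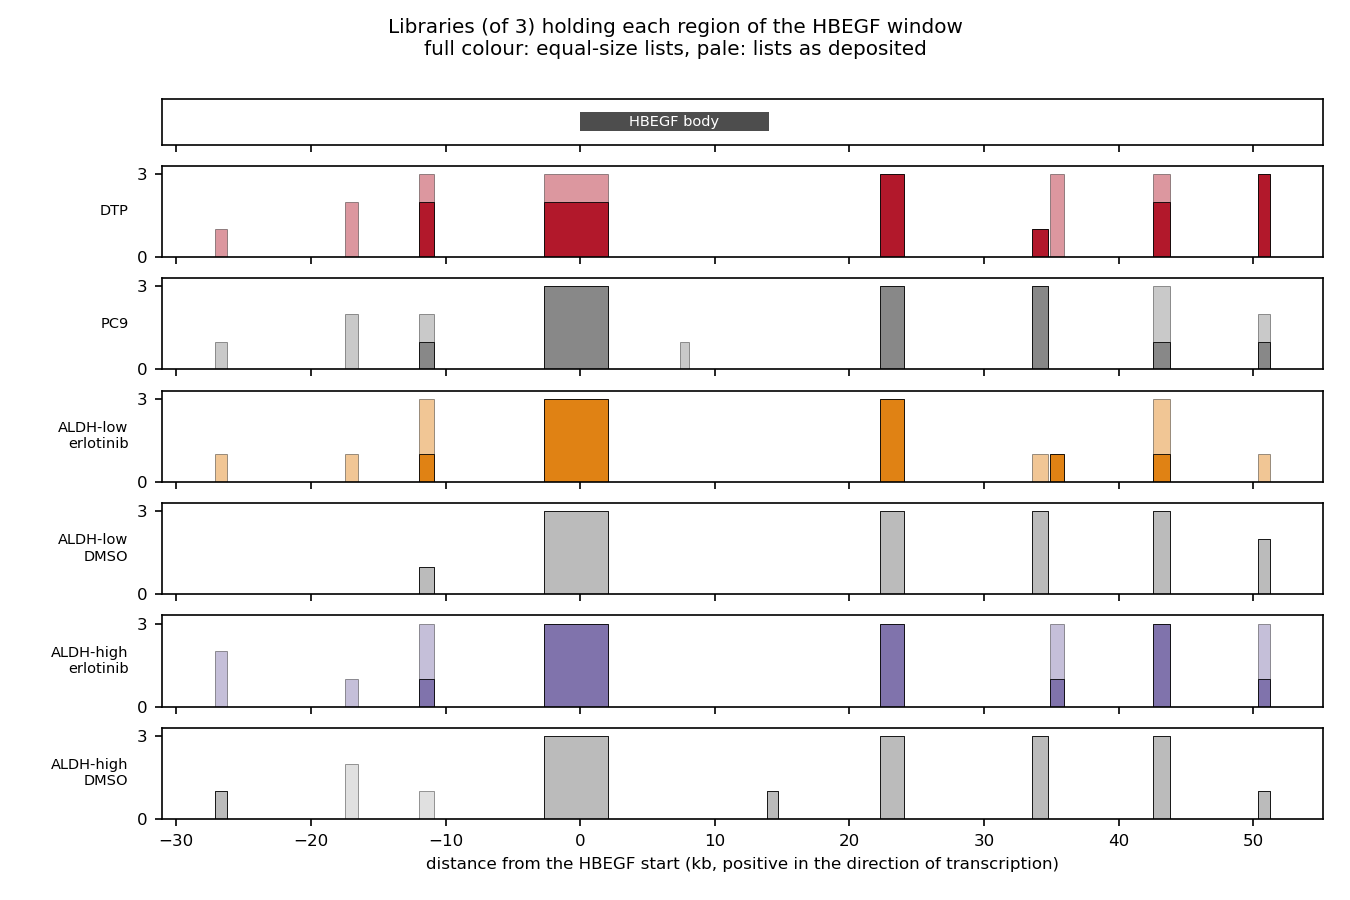
The HBEGF window, with the distance from the gene start (kb) on the x axis and the number of libraries of each group that held each region on the y axis (0 to 3). Full colour shows lists of equal size and pale colour the lists as deposited. At 34 kb the bars are full in PC9 and both DMSO groups (3 of 3) and short or missing in DTP and the erlotinib groups, and the next bar, at 35 kb, is seen in DTP and the erlotinib groups.

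The other strong region downstream of HBEGF had lower mean ranks under erlotinib in sorted cells, short of the adjusted threshold. HBEGF +23 kb (chr5:139701928-139703732), the highest-ranked region of the window, was called in all 18 libraries. Its percentiles were 45.8, 58.3 and 50.8 in ALDH-low erlotinib and 76.5, 77.8 and 86.9 in ALDH-low DMSO. They were 58.3, 42.2 and 81.1 in ALDH-high erlotinib and 81.1, 84.1 and 74.1 in ALDH-high DMSO. The ALDH-low groups did not overlap, and in ALDH-high only library c of the erlotinib group reached the DMSO values.

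The mean percentile of HBEGF +23 kb was 56.1 over the erlotinib and 80.1 over the DMSO libraries, a difference of -23.99 (exact permutation p = 0.015, adjusted p = 0.094 over 12774 regions). It did not pass the adjusted threshold. In DTP and PC9 it ranked near the top of every list, with 91.7, 87.2 and 93.5 in DTP and 88.7, 94.3 and 94.0 in PC9, and these groups overlapped. The HBEGF start (chr5:139723916-139728679) averaged 29.6 under erlotinib and 47.4 under DMSO, a difference of -17.8 that did not pass either (exact permutation p = 0.11, adjusted p = 0.31).

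Taking every region into account, 0% of the 12774 regions tested for rank passed an adjusted p of 0.05 as higher or as lower under erlotinib. The smallest adjusted p was 0.0521, and 3151 regions had an unadjusted p under 0.05. Of the 46 regions, 11 were in every sorted list of equal size and could be tested. Of these, 2 (HBEGF +23 kb and TGFA +44 kb) had an unadjusted p under 0.05.

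**Figure D3:**
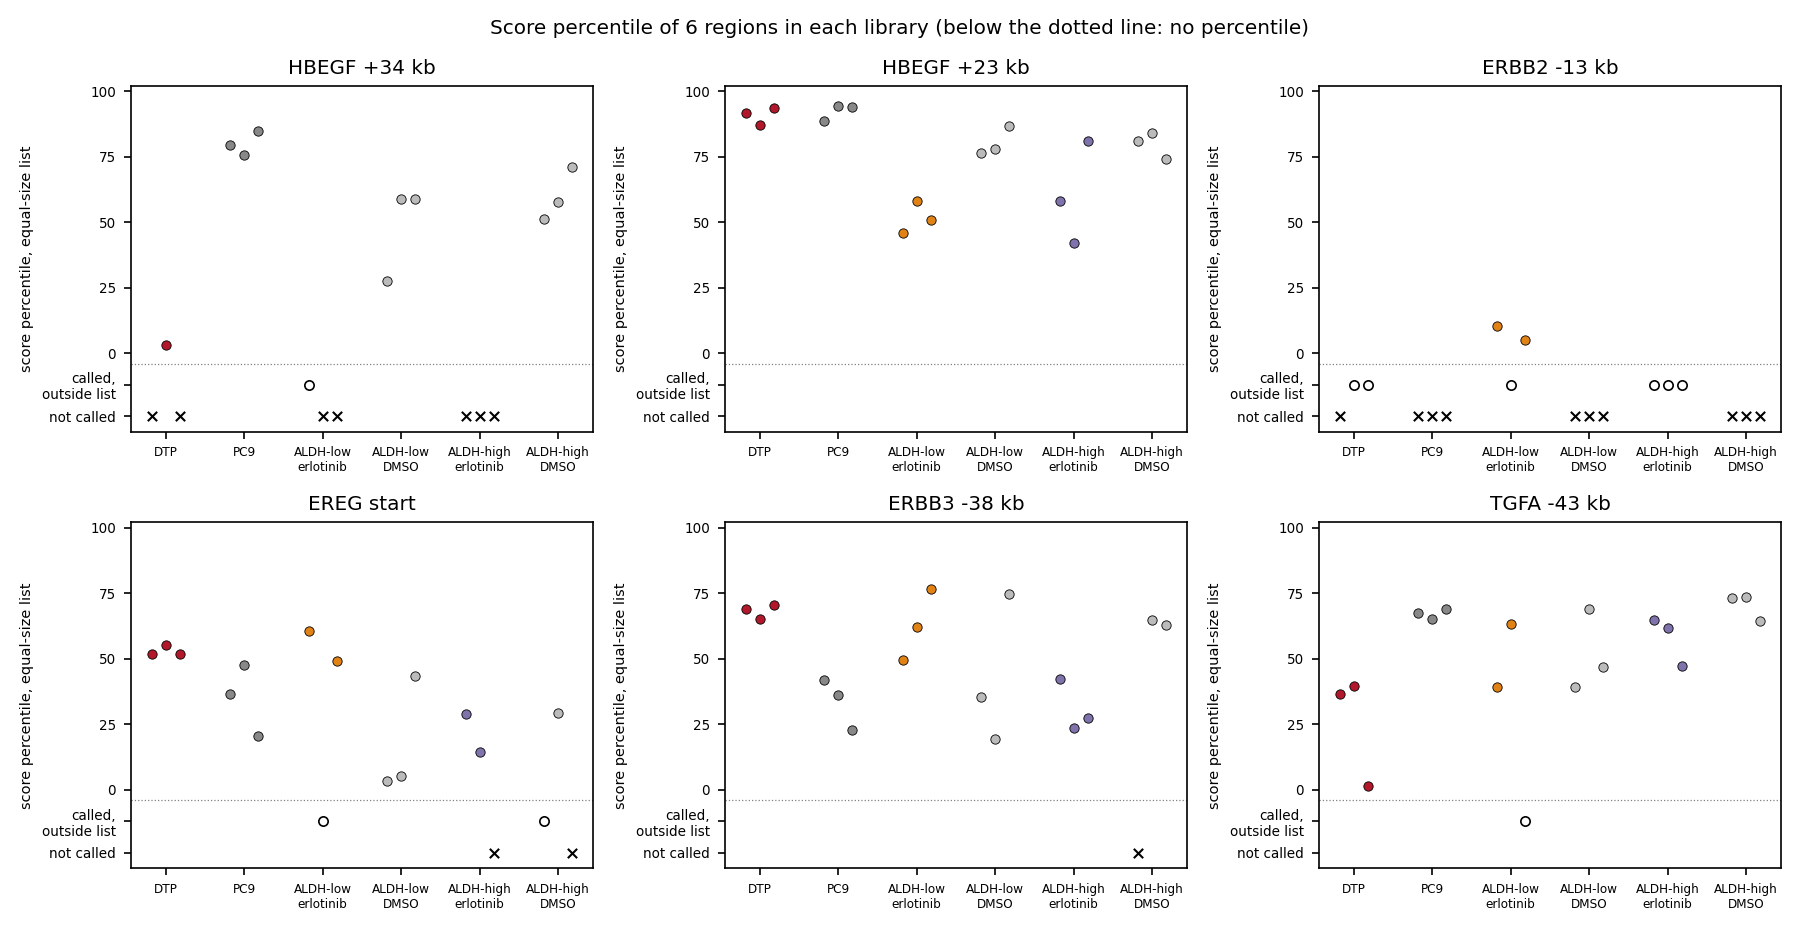
Score percentile in lists of equal size (y axis) for 6 regions in each library, by group (x axis). Each filled point is a library, open circles are peaks called outside the list of equal size and crosses are libraries without a call. HBEGF +34 kb is at 27.6 to 84.9 in the 9 DMSO lists and at 3.14 or without a percentile elsewhere, and TGFA -43 kb is lower in DTP (1.51 to 39.4) than in PC9 (65.0 to 68.9).

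At TGFA, an intragenic region (TGFA +29 kb) ranked high in all groups, and the gene start ranged from about 52.9 upwards. The clearest differences were lower ranks in DTP. The TGFA start (chr2:70779230-70781976) stood at percentiles 52.9, 60.0 and 71.6 in DTP and 83.5, 76.5 and 80.6 in PC9, a mean difference of -18.8. TGFA -43 kb (chr2:70823151-70824529), upstream of the gene, stood at 36.6, 39.4 and 1.51 in DTP and 67.6, 65.0 and 68.9 in PC9, a mean difference of -41.3. TGFA +29 kb (chr2:70750764-70753210), within the gene, was at 86.8, 86.1 and 82.3 in DTP and 92.2, 92.3 and 87.6 in PC9, a mean difference of -5.65. In all 3 regions the DTP and PC9 values did not overlap, with DTP lower.

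These differences carry no adjusted test, since 3 against 3 libraries cannot give a p below 0.1. Over the 15104 regions present in all 6 lists of equal size, 17.6% were higher and 17.3% lower in DTP with no overlap of the groups. Of the 14 such regions at the 6 loci, 3 were higher, 4 lower and 7 overlapped. TGFA -43 kb, TGFA +44 kb, EREG +10 kb, ERBB3 -38 kb and ERBB3 +38 kb were named after their values had been seen. So was ERBB2 +12 kb, described below.

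Under 12 h of erlotinib, a region in the TGFA body had higher mean ranks and a region downstream was called more often. TGFA +44 kb (chr2:70735805-70737519), in the gene body, stood at 74.4, 44.5 and 80.8 in ALDH-low erlotinib and 24.1, 44.2 and 41.7 in ALDH-low DMSO. It stood at 79.4, 78.8 and 32.1 in ALDH-high erlotinib and 44.5, 64.8 and 30.2 in ALDH-high DMSO. The ALDH-low groups were separate by a narrow margin, whereas the ALDH-high groups overlapped. The means were 65.0 under erlotinib and 41.6 under DMSO, a difference of 23.4 that did not pass adjustment (exact permutation p = 0.045, adjusted p = 0.182 over 12774 regions).

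TGFA +128 kb (chr2:70652550-70653545), downstream of the gene, was held by 3 of 3 ALDH-low erlotinib and 0 of 3 ALDH-low DMSO libraries, and by 2 of 3 ALDH-high erlotinib and 0 of 3 ALDH-high DMSO libraries. No DTP or PC9 library held it. Its percentiles in the deposited lists were 46.4, 17.8 and 51.2 in ALDH-low erlotinib, and 67.5 and 33.6 in ALDH-high erlotinib a and c. The calls passed over the 6480 regions able to reach an unadjusted p under 0.05 (exact permutation p = 0.02, adjusted p = 0.0413), where 42.8% of regions passed as higher, and did not with no filter (adjusted p = 0.318). In lists of equal size 2 of 3 ALDH-low and 1 of 3 ALDH-high erlotinib libraries and no DMSO library held it, which did not pass (exact permutation p = 0.2). The TGFA start averaged 80.4 under erlotinib and 76.0 under DMSO (adjusted p = 0.776 by the exact permutation test).

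At EREG, the gene start ranked higher in DTP than in PC9. The EREG start (chr4:75230152-75231472) stood at percentiles 52.0, 55.3 and 51.9 in DTP and 36.6, 47.7 and 20.7 in PC9, a mean difference of 18.04 with no overlap. Over all 15104 regions, 17.6% were higher in DTP with no overlap. In sorted cells the EREG start was called in 3 of 3 ALDH-low erlotinib and 3 of 3 ALDH-low DMSO libraries, and in 2 of 3 of both ALDH-high groups. In lists of equal size, ALDH-low erlotinib a and c held it at 60.7 and 49.0. The ALDH-low DMSO lists held it at 3.37, 5.12 and 43.5. ALDH-high erlotinib a and b held it at 28.9 and 14.5, and ALDH-high DMSO b at 29.3. It was missing from the remaining sorted lists, so its rank was not tested. The highest-ranked region was EREG -44 kb (chr4:75186017-75186983), upstream towards EPGN, with means of 71.9 under erlotinib and 65.4 under DMSO (adjusted p = 0.71 by the exact permutation test over 12774 regions). EREG +10 kb, in the gene body, was at 73.3, 71.3 and 71.1 in ALDH-low erlotinib and 62.3, 87.8 and 45.3 in ALDH-low DMSO, so these groups overlapped. In ALDH-high cells it was at 75.9, 75.5 and 72.0 under erlotinib and at 50.5 and 55.4 in DMSO b and c, with no call in DMSO a.

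At AREG, no peak touched the gene body in any of the 18 libraries. The nearest calls left a stretch of 77.8 kb without a peak (chr4:75260924-75338748), which contains the whole gene. The single region of the window, AREG +28 kb (chr4:75338749-75339305), was held by DTP c alone, at percentile 11.1 of its list. Along whole chromosomes, 26.6% of the 30357 bins of 100 kb had no peak in any library. These bins were not matched to gene loci, so this share does not show how common such a gap is around a gene. AREGB is listed by RefSeq as a synonym of AREG, and hg19 holds a near-identical copy of the gene. Reads that match both copies cannot be placed uniquely, and whether such reads were kept is not given in the sources used here. Their part in the missing calls was not tested.

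At ERBB2, a region upstream of the gene start was called in all erlotinib-treated sorted libraries and in no DMSO library. ERBB2 -13 kb (chr17:37830883-37832019) lies on the side of PGAP3, the gene before ERBB2 in RefSeq. The bounds of PGAP3 were not used here, so whether the region lies inside that gene was not examined. ERBB2 -13 kb was held by 2 of 3 DTP and 0 of 3 PC9 libraries. It was held by 3 of 3 ALDH-low erlotinib and 0 of 3 ALDH-low DMSO libraries, and by 3 of 3 ALDH-high erlotinib and 0 of 3 ALDH-high DMSO libraries. Its peaks ranked low. They lay at percentiles 28.7 and 26.1 of the deposited lists in DTP b and c, at 42.3, 17.3 and 23.6 in ALDH-low erlotinib and at 16.8, 4.30 and 28.3 in ALDH-high erlotinib.

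Complete separation of the 6 erlotinib from the 6 DMSO libraries at ERBB2 -13 kb gave p = 0.005 (exact permutation test, adjusted p = 0.0087 over 1919 regions). These 1919 regions were called in 3 libraries of each fraction, so complete separation was possible, and 52.1% of them passed as higher and 5.37% as lower under erlotinib. With no filter on the regions tested the adjusted p was 0.226. The call moved with list length. In lists of equal size only ALDH-low erlotinib a and c held the region, at percentiles 10.6 and 5.04, which is 33.3% of the erlotinib and 0% of the DMSO libraries (exact permutation p = 0.4).

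The ERBB2 start (chr17:37843724-37844820), taken from the start of the given gene body, ranked in the middle or lower part of the lists. In lists of equal size no DTP library held it, and it stood at 22.7, 36.6 and 24.5 in PC9. DTP b and c still called it in the deposited lists, as did all 3 PC9 libraries. Other start sites of ERBB2 were not examined, so whether a region inside the given gene body lies at one is not known here. ERBB2 +12 kb (chr17:37855915-37856742), in the gene body, was held as deposited by 1 of 3 DTP and 1 of 3 PC9 libraries. Of the sorted libraries, 2 of 3 ALDH-low erlotinib, 1 of 3 ALDH-high erlotinib and 0 of 3 of each DMSO group held it (exact permutation p = 0.2). ERBB2 +12 kb was chosen after its values had been seen. ERBB2 +18 kb (chr17:37861635-37862927), in the gene body, had the highest mean rank of the window. It was held by all erlotinib-treated sorted libraries, at 71.3, 32.1 and 51.6 in ALDH-low and 61.9, 70.9 and 79.5 in ALDH-high. Of the DMSO lists of equal size, ALDH-low b held it at 25.4 and ALDH-high a and c at 6.62 and 49.4. It was thus absent from 3 of the 6 DMSO lists, and in ALDH-high cells the erlotinib values lay above those of both DMSO lists that held it.

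At ERBB3, the gene start and a region upstream ranked higher in DTP. The ERBB3 start (chr12:56472401-56475195) stood at 65.9, 56.1 and 64.6 in DTP and 49.3, 47.6 and 48.6 in PC9, a mean difference of 13.7. ERBB3 -38 kb (chr12:56434750-56436353) lies on the side of RPS26, the gene before ERBB3 in RefSeq. It stood at 69.0, 65.0 and 70.3 in DTP and 41.9, 36.1 and 22.8 in PC9, a mean difference of 34.5. ERBB3 +38 kb (chr12:56511377-56512785) lies beyond the end of the gene, where PA2G4 and then RPL41 follow in RefSeq. It moved the other way, with 41.0, 28.7 and 36.4 in DTP and 53.5, 76.3 and 62.5 in PC9, a mean difference of -28.7. Which gene these flanking regions belong to was not tested. None of these 3 pairs of groups overlapped. Over all 15104 regions, 17.6% were higher and 17.3% lower in DTP with no overlap. ERBB3 -38 kb and ERBB3 +38 kb were chosen after their values had been seen.

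After 12 h of erlotinib, the ERBB3 regions that could be tested did not pass. The start averaged 63.5 under erlotinib and 54.4 under DMSO (adjusted p = 0.783 by the exact permutation test over 12774 regions). The highest-ranked region of the window, ERBB3 +24 kb (chr12:56497379-56498880), lies just beyond the end of the gene, where the next gene in RefSeq is PA2G4. It was at 87.2 or above in every list of equal size and averaged 92.2 under erlotinib and 93.0 under DMSO. ERBB3 +38 kb averaged 63.8 under erlotinib and 59.0 under DMSO. ERBB3 -38 kb was missing from ALDH-high DMSO a, so its rank was not tested. It stood at 49.3, 61.9 and 76.7 in ALDH-low erlotinib and 35.4, 19.5 and 74.7 in ALDH-low DMSO, and at 42.5, 23.7 and 27.4 in ALDH-high erlotinib and 64.9 and 62.8 in ALDH-high DMSO b and c. The ALDH-low groups overlapped, and in ALDH-high cells the erlotinib values lay below both DMSO values. ERBB3 +72 kb (chr12:56545255-56546604) was held by 3 of 3 ALDH-low erlotinib and 0 of 3 ALDH-low DMSO libraries, but by 2 of 3 ALDH-high erlotinib and 1 of 3 ALDH-high DMSO libraries (exact permutation p = 0.095, adjusted p = 0.125 over 1919 regions). It was held by 2 of 3 DTP and 2 of 3 PC9 libraries.

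Regions held by all libraries of one group and none of the other were few. Against PC9, DTP gained 1 region at the 6 loci (HBEGF +35 kb) and lost 0, where 6.75% of the 65904 regions called in either group were gained and 3.68% lost. Under erlotinib, ALDH-low cells gained 3 (ERBB2 -13 kb, ERBB3 +72 kb, TGFA +128 kb) and lost 0, where 6.82% of all regions were gained and 0.887% lost. ALDH-high cells gained 2 (ERBB2 -13 kb, HBEGF +35 kb) and lost 1 (HBEGF +34 kb), where 4.52% were gained and 0.998% lost. Over both fractions 1 region (ERBB2 -13 kb) was gained and 0 lost, where 1.55% were gained and 0.160% lost. Of the 46 regions, 42 were called in DTP or PC9, 38 in ALDH-low, 38 in ALDH-high and 40 in the sorted libraries together. The gains were thus 2.38%, 7.89%, 5.26% and 2.50% of the regions called at the 6 loci in these comparisons, and the 1 loss in ALDH-high cells 2.63%. These shares rest on 0 to 3 regions each, and nothing particular to the 6 loci is read from them.

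With lists of equal size none of these gains remained at the 6 loci, and losses appeared. DTP lost the ERBB2 start, which DTP b and c still called in the deposited lists. In this comparison 5.47% of all regions were gained and 5.03% lost. HBEGF +34 kb was lost in ALDH-low cells, where 3.39% of all regions were gained and 2.76% lost. It was also lost in ALDH-high cells, where 3.01% were gained and 2.42% lost, and over both fractions, where 0.941% were gained and 0.691% lost.

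The number of called bases per locus gave the order of the groups. The ERBB2 window held 4741 ± 761 bp in DTP and 5267 ± 1366 bp in PC9, 8912 ± 2015 bp in ALDH-low erlotinib and 3880 ± 2911 bp in ALDH-low DMSO, and 6559 ± 2544 bp in ALDH-high erlotinib and 4253 ± 1200 bp in ALDH-high DMSO (SD, n = 3 each). ALDH-low erlotinib was highest and ALDH-low DMSO lowest, where library a held only 695 bp. Neighbours in the order of means were within their spread.

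The TGFA window held 9202 ± 437 bp in DTP and 8970 ± 899 bp in PC9, 9892 ± 867 bp in ALDH-low erlotinib and 6515 ± 163 bp in ALDH-low DMSO, and 10277 ± 1452 bp in ALDH-high erlotinib and 8207 ± 1354 bp in ALDH-high DMSO (SD, n = 3 each). ALDH-low DMSO was lowest, with each of its libraries (6338 to 6660 bp) below each library of the other groups. Its lists were also the shortest. Per Mb of called sequence its libraries held 217 to 233 bp, within the range of the other groups (205 bp in DTP c to 269 bp in ALDH-high DMSO a). Neighbours among the other 5 groups were within their spread.

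The HBEGF window held 7962 ± 223 bp in DTP and 7312 ± 433 bp in PC9, 7510 ± 1509 bp in ALDH-low erlotinib and 6087 ± 1238 bp in ALDH-low DMSO, and 7925 ± 404 bp in ALDH-high erlotinib and 8237 ± 521 bp in ALDH-high DMSO (SD, n = 3 each). All neighbours in the order of means were within their spread. The ERBB3 window held 8216 ± 460 bp in DTP and 7141 ± 1278 bp in PC9, 8442 ± 677 bp in ALDH-low erlotinib and 5818 ± 633 bp in ALDH-low DMSO, and 7099 ± 993 bp in ALDH-high erlotinib and 6432 ± 852 bp in ALDH-high DMSO (SD, n = 3 each). ALDH-low erlotinib was highest and ALDH-low DMSO lowest, and neighbours in the order were again within their spread.

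The EREG window held 3136 ± 345 bp in DTP and 2709 ± 295 bp in PC9, 3250 ± 204 bp in ALDH-low erlotinib and 2521 ± 87.8 bp in ALDH-low DMSO, and 2814 ± 337 bp in ALDH-high erlotinib and 2144 ± 770 bp in ALDH-high DMSO (SD, n = 3 each). The AREG window held 557 bp in DTP c and 0 bp in every other library. ALDH-low DMSO or ALDH-high DMSO was the lowest group at each locus except AREG.

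**Figure D4:**
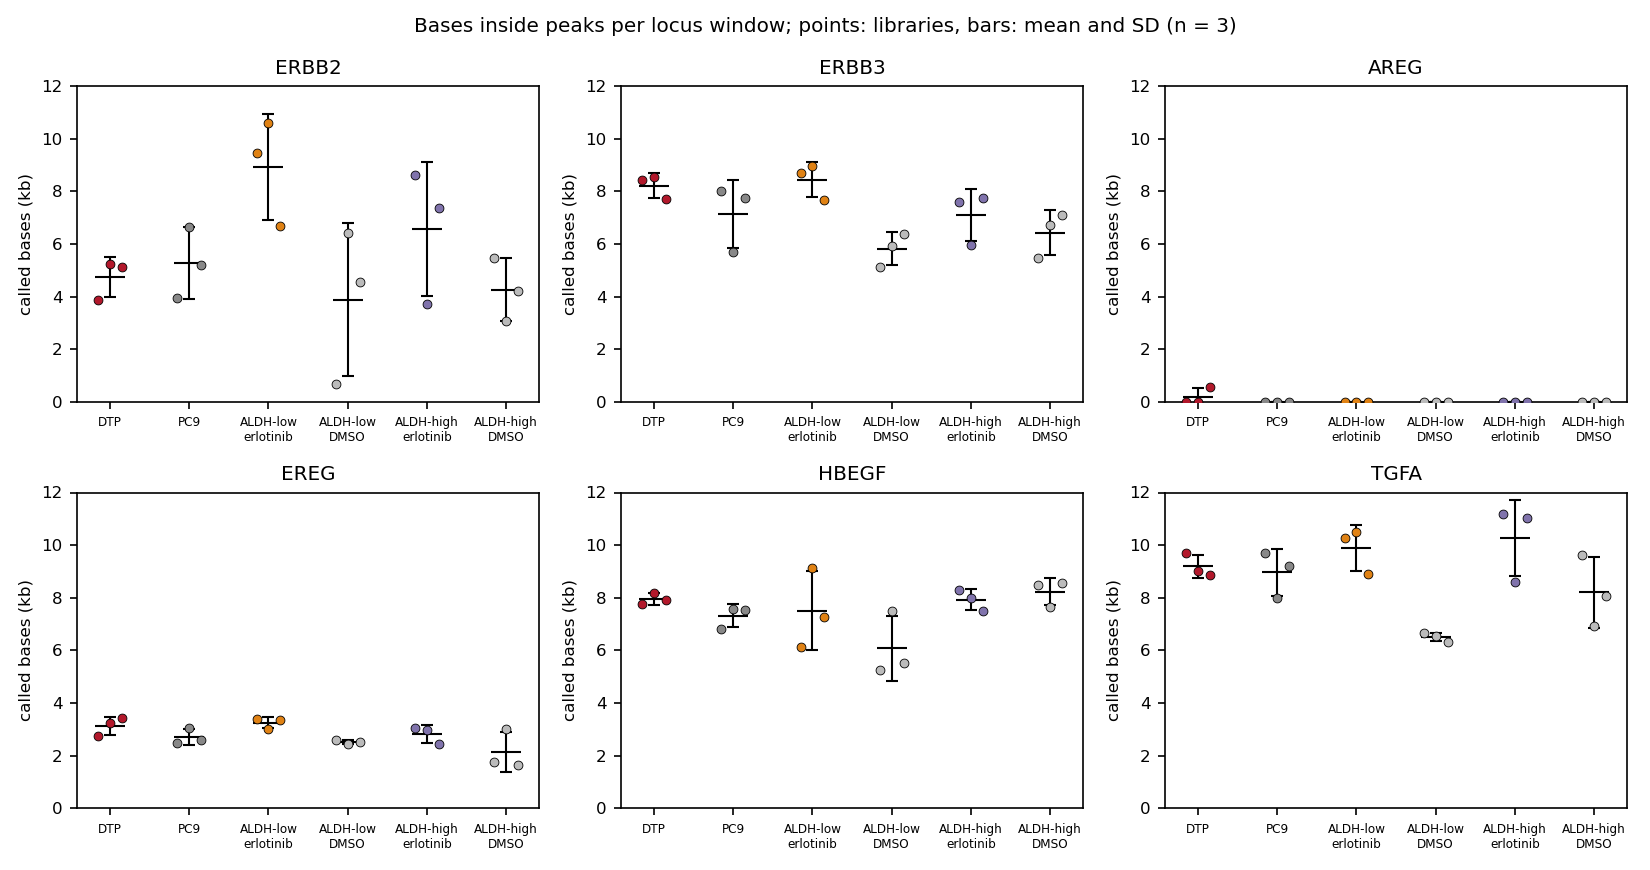
Called bases (kb, y axis) in each locus window by group (x axis). Points are libraries and bars the mean and SD (n = 3). In the TGFA panel the ALDH-low DMSO libraries (6338 to 6660 bp) lie below all others, and the AREG panel is at 0 except for DTP c. Values are not scaled to the length of the lists.

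Over both fractions, erlotinib libraries had more called bases on average than DMSO libraries at every locus except AREG, but no locus passed adjustment. The means were 10085 bp under erlotinib and 7361 bp under DMSO at TGFA, a difference of 2723 bp (exact permutation p = 0.01, adjusted p = 0.0633 over the 6 loci and 22294 bins of 100 kb). At ERBB2 they were 7736 bp and 4067 bp, a difference of 3669 bp (exact permutation p = 0.025, adjusted p = 0.105). At ERBB3 the difference was 1646 bp (exact permutation p = 0.025, adjusted p = 0.105) and at EREG 700 bp (exact permutation p = 0.03, adjusted p = 0.119). At HBEGF the difference was 555 bp (exact permutation p = 0.425, adjusted p = 0.703).

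Of all bins, 11.1% had more and 0.318% fewer called bases under erlotinib at an adjusted p under 0.05, and 6477 had an unadjusted p under 0.05. The longer erlotinib lists moved with these differences: they covered 37.2 to 46.0 Mb, against 28.6 to 35.8 Mb for the DMSO lists. Per Mb of called sequence in each list the erlotinib difference turned negative at HBEGF (-41.7 bp per Mb), ERBB3 (-11.0) and EREG (-2.76). It kept its sign at ERBB2 (53.1 bp per Mb, exact permutation p = 0.15, adjusted p = 0.445). At TGFA it also kept its sign but was small (5.84 bp per Mb, exact permutation p = 0.595, adjusted p = 0.943).

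Between DTP and PC9, HBEGF was the only locus whose groups did not overlap, at 7754, 8198 and 7933 bp in DTP and 6813, 7582 and 7542 bp in PC9 (difference 649 bp, exact permutation p = 0.1, the smallest possible). Of all bins, 29.9% had groups without overlap in either direction. DTP lists covered 42.1 to 43.4 Mb and PC9 lists 37.6 to 38.6 Mb, and per Mb of called sequence the difference turned to -6.73 bp.

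No difference between ALDH-high and ALDH-low cells passed a test at these loci. No region of the 46 was held by all libraries of one fraction and none of the other. Over all regions, 1.28% were gained and 0.140% lost in ALDH-high cells, set against ALDH-low cells, under DMSO, 0.893% and 0.446% under erlotinib, and 0.0186% and 0% over both treatments. For calls between fractions, none of the 46 was among the 440 regions whose call numbers allow complete separation. Of those 440, 0% passed in either direction, with 12 at an unadjusted p under 0.05 and a smallest adjusted p of 0.183 (exact permutation test). Among the 2210 regions able to reach an unadjusted p under 0.05, 0% passed in either direction, with 108 at an unadjusted p under 0.05. The 2210 regions tested included 1 of the 46, HBEGF +51 kb (exact permutation p = 1, adjusted p = 1).

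Ranks gave the same count between the fractions. Over all loci, 0% of 12774 regions passed as higher or lower (1134 at an unadjusted p under 0.05), and at the 11 regions of the 6 loci adjusted p ranged from 0.551 (TGFA +150 kb) to 1 by the exact permutation test. For called bases, 0% of the bins passed in either direction (1412 at an unadjusted p under 0.05). The largest difference between ALDH-high and ALDH-low cells was at HBEGF, with means of 8081 bp and 6799 bp (exact permutation p = 0.08, adjusted p = 0.77). The erlotinib effect on called bases was also compared between the fractions, and its difference had exact permutation p-values of 0.055 at ERBB3 and 0.235 or more elsewhere.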

How the data were processed

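Open chromatin was measured by ATAC-seq in 18 libraries of 6 groups, taken from the sample labels. Each library had 1 deposited peak list made by the authors, in which column 5 is a score of unstated scale with a lowest value of about 70. Per the submitters' processing notes, BWA, MACS 1.4.2 and hg19 were used. Read filters, transposase shifting and calling parameters are not given in the labels, and read depth is unknown.

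Peaks of different libraries (chromosomes 1 to 22 and X) were merged where they shared 1 bp (Python 3.11.15, NumPy 2.4.6, SciPy 1.17.1, Matplotlib 3.10.9). A gained region was held by every library of the group named first and by no library of the other, and a lost region the reverse. Percentiles rank scores within lists, cut to the 26225 highest-scoring peaks. Calls, percentiles and called bases were tested by exact two-sided permutation over the 12 sorted libraries (400 assignments, smallest p 0.005), with Benjamini-Hochberg adjustment over the whole table. Tests of calls used the regions whose call totals allow complete separation. For DTP against PC9 (20 assignments, smallest p 0.1) overlap is described. The procedure was tested on simulated data.

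Regions were named by rule: those at gene starts, the highest mean percentile per window, those gained or lost, and those with an adjusted p under 0.05. Regions named outside this rule were chosen after their values had been seen. Members, lists and tests were chosen with earlier results of these data known. Letters shared between groups were not used as pairs in the main tests. Over 15 same-letter pairs, deviations from group means correlated at -0.0206 to 0.0241, and no pair was over 0.1. These correlations cannot show whether libraries of the same letter were prepared together. At most 12 peaks had identical ends in 2 libraries of a group, so no list was a copy of another. Alternatives were a score of at least 100, 50% cover, lists of equal size, a flank of 20 kb, bases per Mb called, each library left out and a replicate block. Other filters on the regions tested and joining regions at most 200 bp apart were added after seeing the data. Promoters came from RefSeq (GRCh38.p14) by symbol, with 5 of 6 genes matched, and gene neighbours and synonyms from RefSeq names only.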

Additional observations from a re-analysis of the deposited data

How the results depend on the processing

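Counts of gained and lost regions were small and moved with the setting. In lists of equal size, the gains became 0 in DTP, 0 in ALDH-low, 0 in ALDH-high and 0 over both fractions, and the losses 1 in DTP, 1 in ALDH-low and 1 over both fractions. With a score of at least 100 the gains were 0 in DTP, 1 in ALDH-high and 0 over both fractions. With 50% cover DTP gained 0. With a flank of 20 kb the gains were 0 in DTP, 1 in ALDH-low and 1 in ALDH-high. With regions within 200 bp joined, the gains were 0 in DTP and 1 in ALDH-high, and ALDH-high lost 0. With each library left out, DTP gained 1 to 3 and lost 0 to 1, ALDH-low gained 3 to 6 and lost 0 to 1 and both fractions gained 1 to 2 and lost 0 to 1. The fractions differed by a gain of 0 to 1 under DMSO and 0 to 1 under erlotinib. The highest counts came without DTP a (3), ALDH-low DMSO b (6) and ALDH-high erlotinib b (2). The call of ERBB2 -13 kb held with each library left out and at 50% cover, and was lost with a score of at least 100 (50% of erlotinib libraries, exact permutation p = 0.2), in lists of equal size, with no filter on regions (adjusted p = 0.226 over 49820) and with the replicate block (difference of 100%, exact permutation p = 0.0313, adjusted p = 0.0544). The block changed no other call. HBEGF +34 kb passed the exact permutation test in lists of equal size (adjusted p = 0.00937, and 0.0305 over regions able to reach p under 0.05) but not with no filter (0.224). As deposited it passed at an adjusted p of 0.0132 without ALDH-low erlotinib a and 0.0383 to 0.0389 without any 1 ALDH-low DMSO library, and under the same wider filter (0.0413), and its call was lost once it was joined with HBEGF +35 kb. TGFA +128 kb passed at 0.0126 without ALDH-high erlotinib b and at 0.0356 to 0.0364 without any 1 ALDH-high DMSO library, and ERBB3 +72 kb at 0.0334 without ALDH-high erlotinib b and 0.0361 without ALDH-high DMSO b.

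For called bases, TGFA passed under erlotinib with a score of at least 100 (3386 bp, exact permutation p = 0.005, adjusted p = 0.0467), and ERBB2 without ALDH-high erlotinib b (adjusted p = 0.0452 by the same permutation), with differences of 2873 to 4380 bp over the libraries left out. Signs turned, with no call involved, as follows. The erlotinib difference at HBEGF was -1337 bp in lists of equal size, -41.7 bp per Mb called and -294 bp with a flank of 20 kb, and per Mb it was -11.0 at ERBB3 and -2.76 at EREG. The DTP difference was 148 bp at ERBB2 with a score of at least 100 (-1195 to 171 bp over libraries left out), -454 bp at TGFA in lists of equal size, -21.3 bp per Mb and -267 to 606 bp over libraries left out, and -6.73 bp per Mb and -454 bp with a flank of 20 kb at HBEGF. The ALDH difference at ERBB3 was 27.7 bp with a score of at least 100. Percentile differences under erlotinib turned to 1.08 at ERBB3 +24 kb and 0.241 at TGFA +29 kb in the lists as deposited. Over libraries left out they ran from -1.83 to 0.578 at ERBB3 +24 kb, -1.52 to 15.8 at the ERBB3 start, -3.28 to 8.97 at ERBB3 +38 kb and -0.200 to 6.77 at the TGFA start. In DTP they ran from -15.3 to 0.460 at EREG -44 kb and -3.38 to 0.236 at HBEGF +23 kb. Where no construction of a setting shows it, the cause was not tested. The number of libraries and the unknown read depth limit all of these values.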

Other observations

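A few low-ranked regions were called in few libraries or mainly in unsorted cells and were chosen here after their values were seen, with no test. EREG +30 kb (chr4:75260344-75260923), between EREG and AREG, was held by DTP b and c, at percentiles 36.9 and 34.7 of the deposited lists, and by no other library. The 7 regions held by a single library (15.2% of the 46, against 21.2% of all regions) were AREG +28 kb and ERBB3 +6 kb in DTP c, ERBB3 -25 kb in DTP b, HBEGF +8 kb and TGFA +57 kb in PC9 b, ERBB3 +36 kb in ALDH-low erlotinib a and HBEGF +14 kb in ALDH-high DMSO b. TGFA +82 kb, in the gene body, was held by all 3 DTP and all 3 PC9 libraries, and of the 12 sorted libraries by ALDH-low DMSO a and ALDH-high DMSO a. It stood, in lists of equal size, at percentiles 21.3 and 10.8 in DTP b and c, 8.70, 19.7 and 27.2 in PC9 and 12.7 in ALDH-low DMSO a, and was in no other list. Unsorted and sorted lists differ in treatment time and handling as well as in sorting, and these cannot be told apart.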
